A study of Mus musculus with 24 samples.

Results

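The response of the ileum to calcitriol was set against that of the colon, library number by library number. Calcitriol, or 1,25-dihydroxyvitamin D3, is the active hormone made from vitamin D. For each of the 7 numbers that an ileal and a colonic library share, the ileal minus the colonic level of every gene was taken as log2(FPKM + 1), where FPKM counts fragments scaled to transcript length and to library size. The 4 treated numbers (1, 3xD5711, 3xD5720 and 3xD5734, with the region's letter left off) were then compared with the 3 deficient numbers (1, 2 and 3). These 14 libraries are part of a series of 24 samples, and 13024 of 21441 genes passed the filter of at least 1 FPKM in 3 or more columns of either tissue. A positive value means that treated minus deficient was larger in the ileum, and a negative value that it was larger in the colon.

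All mice were wild type, on the C57BL6J background, with labelled ages of 10 to 14 in a unit that is not stated. Treated mice had 3 injections of calcitriol at 1 ng per g body weight, given 48, 24 and 6 h before they were killed. The comparison mice were vitamin D-deficient and are labelled as having no treatment, although their columns are headed as vehicle. The labels state neither how the deficiency was produced nor whether an ileal and a colonic library of 1 number came from 1 mouse. Labelled ages agree between the tissues for treated samples, but 1 deficient ileal sample has an age that no deficient colonic sample has. Which number that sample carries is not stated.

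Some facts about the libraries touch every value below. The treated libraries 3xD5711, 3xD5720 and 3xD5734 carry 4-digit numbers, and treated 1 and all deficient libraries carry serial ones, so that numbering and treatment nearly coincide and cannot be told apart beyond treated 1. The 4-digit libraries were also shallower, with 12208248 to 15262207 recovered reads against 18844964 to 31076586 in serial ones over both tissues. By Xist against Ddx3y, treated 3xD5711 and 3xD5720 were female and the other 5 numbers male, in both tissues alike. Exocrine pancreas transcripts summed to 34622.7 FPKM in colon treated 3xD5720, 6213.1 in colon deficient 1 and 5342.0 in colon deficient 3, and to 165.8 to 362.1 in the other 4 colonic libraries. The ileal bile acid-binding protein gene Fabp6 stood at 1985 to 10714 FPKM in the ileum and at 28.5 to 266.5 in the colon, and the carbonic anhydrase gene Car1 at 0.522 to 34.7 FPKM in ileal and 1588 to 7807 in colonic libraries, each on the side its label names. Saa1, another colon marker, stood at 2748.1 FPKM in ileum treated 3xD5720 against 2482.5 in its colon, and at 473.6 in ileum deficient 3. Summed colon markers were 3444.0 FPKM in ileum treated 3xD5720, 282.4 to 929.0 in the other ilea and 6171.1 to 12979.7 in colons. Where a difference is given for serial numbers alone, it sets treated 1 against the 3 deficient numbers and has a single treated number behind it.

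Calcitriol acts through the vitamin D receptor, a nuclear receptor that pairs with a retinoid X receptor on DNA. In the intestinal epithelium it is known for raising the route by which calcium crosses a cell: the apical channel TRPV6, the carrier calbindin-D9k (gene S100g) and the basolateral pump PMCA1 (gene Atp2b1). It also induces Cyp24a1, whose product breaks the hormone down. The duodenum is the best studied site of this response, and the ileum and colon lie farther along the gut.

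The 3 genes of the calcium route had larger treated minus deficient values in the colon than in the ileum. Trpv6 was nearly silent in every ileal library and reached 35.9 to 111.4 FPKM in the treated colons. S100g and Atp2b1 were higher in treated than deficient libraries of both tissues on average, and by more in the colon, though S100g varied widely within groups. None of these passed a test across all genes.

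The sequences before Trpv6 and S100g are printed because both genes carried the largest responses of the calcium route. They come from the RefSeq promoter table on GRCm38.p6, 250 bases before the annotated start, 5′ to 3′ on the gene's strand, with matches to AGGTCA or GGTTCA on either strand in capitals. These are the letters of a nuclear receptor half-site, and 21.5% of all 32851 promoters in the table hold at least 1. The Trpv6 window is chr6:41636406-41636655 on the minus strand and holds 2 matches, and the S100g window is chrX:162964600-162964849 on the minus strand and holds 3.
Trpv6: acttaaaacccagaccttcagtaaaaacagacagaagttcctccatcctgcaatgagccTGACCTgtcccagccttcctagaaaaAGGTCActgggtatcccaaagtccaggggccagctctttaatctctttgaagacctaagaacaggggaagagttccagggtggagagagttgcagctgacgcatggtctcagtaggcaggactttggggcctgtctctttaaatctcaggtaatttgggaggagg
S100g: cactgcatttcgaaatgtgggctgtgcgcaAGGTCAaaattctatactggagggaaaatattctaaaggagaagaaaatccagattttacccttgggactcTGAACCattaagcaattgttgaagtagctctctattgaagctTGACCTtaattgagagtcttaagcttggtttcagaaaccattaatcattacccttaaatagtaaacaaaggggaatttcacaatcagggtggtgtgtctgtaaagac
Of 12 calcium transport genes tested, 10 had an entry, and 3 of these held such a match. Counted by promoter, as in the share of all promoters, it was 3 of 13. A pair of half-sites in the same direction with 3 bases between, the DR3 arrangement, was in 0 of the 10 and in 0.0396% of all promoters. The windows printed for Trpv6 and S100g hold none either, which says only that these letters are not there.

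In the ileum Trpv6 (chromosome 6, 41570620 to 41586404 on NCBIM37, the mm9 assembly) was listed at 0.0106, 0.506, 0.241 and 0.193 FPKM in treated 1, 3xD5711, 3xD5720 and 3xD5734, and at 0.0150, 0.0356 and 0.0494 in deficient 1, 2 and 3. In the colon it stood at 57.5, 69.6, 35.9 and 111.4 FPKM in the same treated numbers and at 4.85, 4.38 and 0.0462 in the deficient ones. Each treated colon was above each deficient colon, and deficient 3 was far below the other two deficient colons. The ileum and colon tables were normalized separately, so the level of one is set beside the other only as listed. A constant scale factor drops out of the difference between responses only where levels are far above the added 1 FPKM. Ileal Trpv6 was below that in every library, as was colon deficient 3, so its values depend on the scale. The difference between responses was -4.08 ± 0.64 (SE, 4 against 3 numbers), made up of 0.25 in the ileum and 4.33 in the colon. Its adjusted p was 0.506 by limma with Benjamini-Hochberg adjustment. The 4 treated and 3 deficient differences lay apart, which holds for 7.58% of all genes, and the exact permutation p was 0.0571, the smallest that 4 against 3 allows. The difference ran from -4.53 to -3.26 when each number was left out in turn, and was -4.22 for serial numbers alone. Over all alternatives it ran from -4.57 to -2.54.

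Atp2b1, the gene of the plasma membrane calcium pump PMCA1 (chromosome 10, 98377786 to 98488777 on NCBIM37), separated the groups most evenly. Its colonic level was 103.6, 119.6, 108.7 and 127.2 FPKM in the 4 treated libraries and 52.3, 54.0 and 47.8 in the 3 deficient ones. The ileal levels were 70.2, 70.2, 56.3 and 67.0 FPKM against 50.4, 63.3 and 43.9, where deficient 2 lay above treated 3xD5720. The log2 response was 0.33 ± 0.16 in the ileum (adjusted p = 0.712 by limma) and 1.142 ± 0.117 in the colon (adjusted p = 0.0751), and the difference was -0.81 ± 0.16 (adjusted p = 0.53, range over alternatives 0.176 to 0.997). Again the treated and deficient differences did not overlap, and the value for serial numbers alone was -0.57.

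S100g (chromosome X, 159399924 to 159402531 on NCBIM37) had the highest levels of the route. In the colon it stood at 5578, 4341, 1903 and 4381 FPKM in treated and at 198.7, 394.6 and 21.2 in deficient libraries, with the groups apart. In the ileum it stood at 768.2, 1869, 494.3 and 261.5 FPKM against 29.6, 1339 and 16.5. Deficient 2 thus exceeded 3 of the 4 treated ileal libraries, which its colon did not do. The responses were 2.87 ± 1.42 in the ileum and 4.97 ± 0.91 in the colon, and the difference was -2.09 ± 1.03 (adjusted p = 0.762 by limma), with overlapping groups. Without deficient 2 that difference was -0.996, and over the other numbers left out it reached -3.23.

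The plot of levels by library number shows the 4 patterns side by side. Trpv6 had a response in the colon, and its ileal levels were too low for this scale to show one. Atp2b1 and Lrrc26 had a larger response in the colon. S100g and Slc30a10 had responses of both tissues with scatter, and Cyp24a1 had large scatter among treated libraries.

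**Figure D1:**
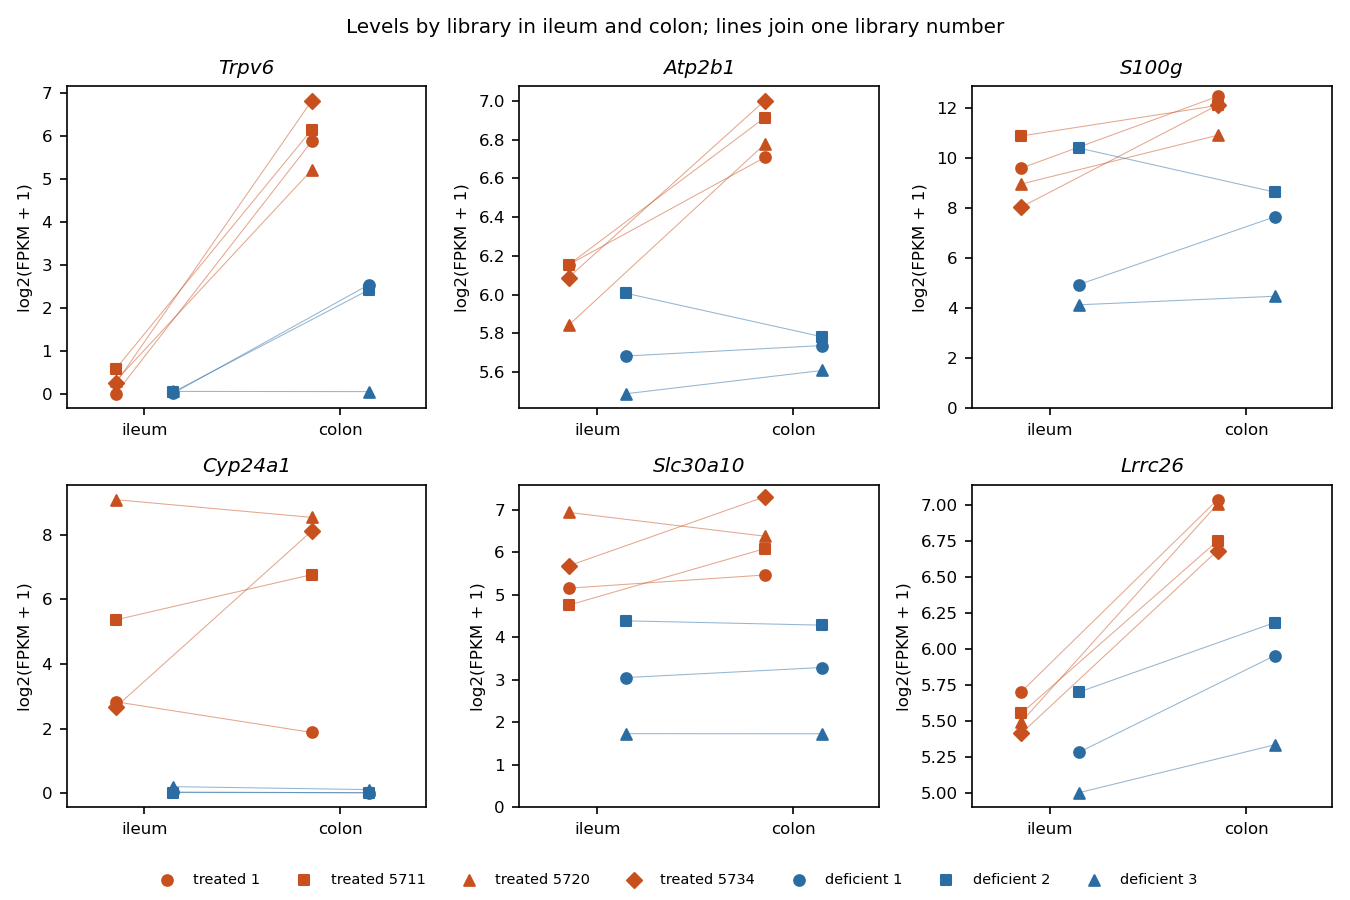
Level of 6 genes, as log2(FPKM + 1), in the ileal and colonic library of each number, with a line joining the libraries of 1 number; orange marks the 4 treated and blue the 3 deficient numbers, and the marker shape tells the numbers apart. Treated Trpv6 ran from 35.9 to 111.4 FPKM in the colon and stayed under 0.51 FPKM in the ileum.

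Of the 12 tested genes for calcium transport, 5 had a difference above 0, where 53.5% of all genes did, and the list's median was -0.03 against 0.02 over all genes. Those with an unadjusted limma p under 0.05 were Trpv6, Atp2b1 and Cldn15, all lower, where 3.02% of all genes were lower at that level. Cldn15 encodes claudin-15, which forms cation pores between cells. It stood at 133.1, 140.2, 95.5 and 133.4 FPKM in treated colons and 83.3, 81.2 and 94.6 in deficient ones, and at 236.7, 246.3, 130.3 and 216.3 against 201.3, 226.4 and 199.4 in the ileum. Its difference was -0.57 ± 0.17 (adjusted p = 0.691 by limma), with non-overlapping groups. Cldn2, the other cation-pore claudin on the list, had 0.49 ± 0.24, with an ileal response of 0.89 and a colonic one of 0.40. The store-operated channel genes Orai1 (0.13) and Stim1 (-0.18), the pump gene Atp2b4 (0.02) and the calmodulin genes Calm2 (0.26) and Calm3 (-0.01) all overlapped between groups.

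Cyp24a1, the catabolic enzyme gene (chromosome 2, 170308208 to 170322645 on NCBIM37), was high in both tissues of treated mice. It was listed at 6.12, 40.3, 543.1 and 5.34 FPKM in treated ilea and 0.0265, 0.0157 and 0.153 in deficient ones, and at 2.68, 108.0, 370.7 and 277.4 FPKM in treated colons against 0.0108, 0.0107 and 0.0816. All 4 treated libraries of each tissue lay above all 3 deficient ones. The order of the treated numbers was not shared by the tissues: treated 3xD5734 was lowest in the ileum and second highest in the colon. Its difference of responses, -1.38 ± 1.36 (ileal response 4.90, colonic response 6.28, adjusted p = 0.847 by limma), therefore had a wide error. It was 0.91 for serial numbers alone, of opposite sign, and -0.01 without treated 3xD5734.

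The zinc and manganese transporter gene Slc30a10, whose product exports manganese, also stood above the deficient range in both tissues. Treated ilea had 34.5, 25.96, 121.2 and 50.1 FPKM against 7.29, 19.9 and 2.32 in deficient ones, and treated colons 43.1, 66.7, 81.9 and 156.4 FPKM against 8.77, 18.5 and 2.32. The 3 deficient numbers kept 1 order in both tissues, with deficient 2 highest and deficient 3 lowest. The responses were 2.57 and 3.20 and the difference -0.63 ± 0.48 (adjusted p = 0.813 by limma). Deficient 2 and 3 likewise held the highest and lowest deficient S100g of each tissue.

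Slc37a2, a sugar-phosphate transporter gene of the same panel, showed no separation of the groups in either tissue. Its level was 0.475 to 1.33 FPKM in all ileal libraries. The colonic levels were 34.0, 28.6, 8.14 and 39.1 FPKM in treated and 46.7, 45.8 and 15.1 in deficient libraries, with treated 3xD5720 and deficient 3 low. The difference was 0.41 ± 0.50. Trpv5, the kidney relative of Trpv6, was listed at 0 in all 7 ileal libraries and at no more than 0.0770 FPKM in the colon, under the filter. These genes and Cyp24a1, S100g, Slc30a10 and Trpv6 form the quantitative PCR panel that the labels list; of its 5 tested members 1 was above 0. The panel may have been chosen on these samples.

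Vdr, the receptor gene itself, differed little. It stood at 53.4 to 83.3 FPKM in treated and 59.9 to 98.7 in deficient ilea, and at 101.6 to 139.8 FPKM in treated and 80.4 to 137.0 in deficient colons, so the ranges overlapped in both. The difference was -0.25 ± 0.19, and 0.11 for serial numbers alone. Among 15 genes of the receptor, its partners and vitamin D metabolism 9 were above 0 (median 0.04), where 53.5% of all genes were. An unadjusted limma p under 0.05 was reached by 0 of them, against 6.59% of all genes. The coactivator gene Med1 was the only member whose groups did not overlap, which holds for 7.58% of all genes. Its differences were -0.21 to 0.00 in treated and -0.44 to -0.29 in deficient numbers (0.28 ± 0.13). The coactivator gene Ncoa3 had 0.31 ± 0.20, with overlap.

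Of the 17 zinc and manganese transport genes and metallothioneins, Slc30a10 included, 8 were above 0 and the median was -0.01. The zinc transporter genes of the secretory pathway Slc30a6 (0.39 ± 0.14) and Slc30a7 (0.50 ± 0.19) had an unadjusted p under 0.05, where 3.57% of all genes were higher at that level. On average both were higher in treated than deficient ilea and lower in treated than deficient colons, with levels overlapping in each tissue. The responses for Slc30a6 were 0.26 and -0.13. The metallothionein genes Mt1 (-0.23 ± 0.41) and Mt2 (0.07 ± 0.52) varied too much to place. Among 7 phosphate transport genes, Slc34a2, the apical sodium-phosphate cotransporter gene, had -1.34 ± 0.42 and Slc20a1, a sodium-phosphate cotransporter gene of another family, 0.77 ± 0.28.

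Over all 13024 genes limma called 0 at an adjusted p of 0.05 (0%), and the smallest adjusted p was 0.112, while voom on the recovered reads called 1 gene. By limma 858 genes (6.59%) had an unadjusted p under 0.05, with 465 higher and 393 lower, and 510 had one without deficient 2. With the numbering as a covariate 119 genes were called and 2438 had such a p, and for serial numbers alone 65 and 2302, both resting on treated 1 as the only treated number of its kind. Neither tissue alone gave a call: 764 of 13021 genes (5.87%) in the ileum and 903 (6.93%) in the colon had an unadjusted p under 0.05. The median difference was 0.02, with the 10th percentile at -0.34 and the 90th at 0.42, against a median SE of 0.21. The labels do not say that the samples are separate animals, so p-values measure the spread between these samples. The plot of ileal against colonic response places the genes named here within this spread.

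**Figure D2:**
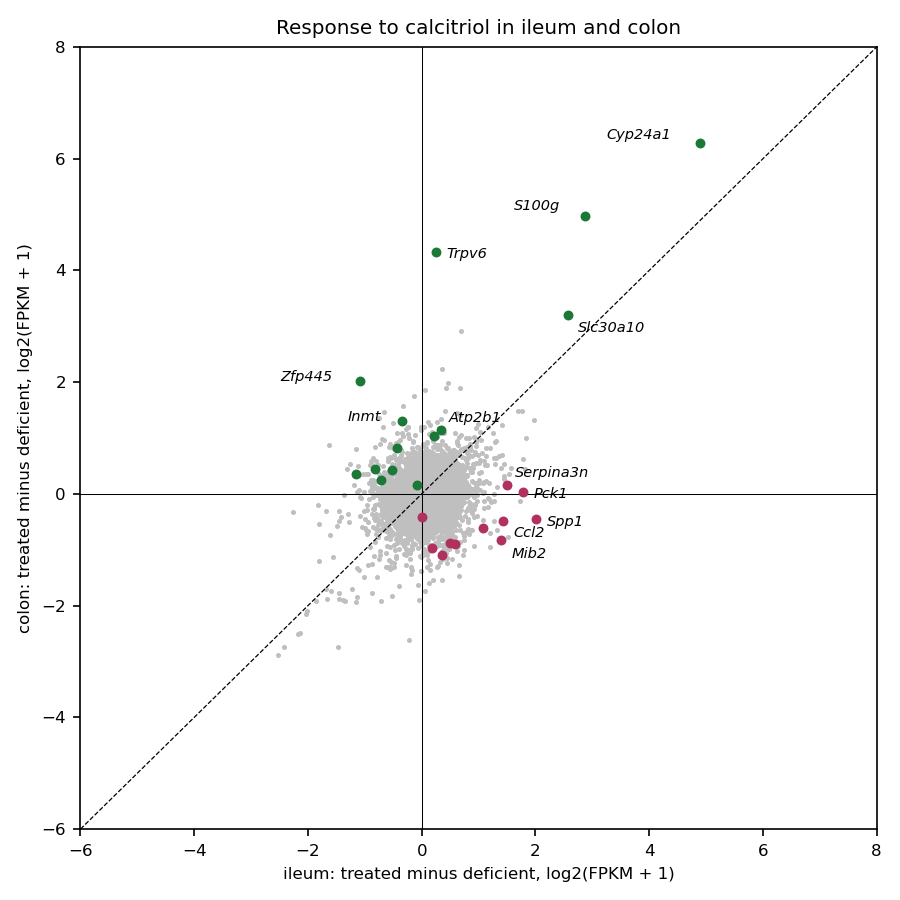
Treated minus deficient level in the ileum (horizontal) and in the colon (vertical), both on the log2(FPKM + 1) scale. Of 13024 genes 13021 were fitted in each tissue, and genes lacking a value in either are not drawn. Grey points are all genes drawn, and coloured points are the genes with the smallest p in each direction and the panel genes. The dashed line marks equal responses. Trpv6 lies at 0.25 and 4.33, near the vertical axis, and Cyp24a1 at 4.90 and 6.28, near the dashed line.

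Next to Trpv6 and Atp2b1, several genes with the smallest p were higher in treated than deficient colons and lower, or little different, in the ileum. Lrrc26 encodes an auxiliary subunit of the BK potassium channel in secretory epithelia (chromosome 2, 25145435 to 25146700 on NCBIM37). It stood at 130.1, 106.6, 127.4 and 101.7 FPKM in treated and 61.0, 71.7 and 39.4 in deficient colons, with groups apart, and at 41.7 to 51.2 against 31.1 to 51.03 in the ileum. Its difference was -0.83 ± 0.15 (adjusted p = 0.53 by limma), and -0.92 to -0.75 when each number was left out. Rac3, a small GTPase gene (chromosome 11, 120582784 to 120585283 on NCBIM37), stood at 8.95 to 11.4 FPKM in treated and 4.64 to 5.90 in deficient colons. In the ileum it ran the other way, at 2.78, 3.23, 1.58 and 2.23 against 3.85, 3.01 and 3.98, with treated 3xD5711 above deficient 2. The difference was -1.25 ± 0.23 (adjusted p = 0.53) and -1.29 for serial numbers alone.

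Rac3 belongs to a list of 17 candidates of the series (C/EBP factors, Krt7 and others) that was chosen on these samples, so its direction is no independent evidence. Of the 17, 1 was above 0, against 53.5% of all genes, and 5 had an unadjusted p under 0.05, all lower, where 3.02% of all genes were lower at that level. Cbr2, a carbonyl reductase gene, stood at 124.8, 81.7, 46.7 and 43.6 FPKM in treated and 15.5, 22.6 and 15.2 in deficient colons, against 0.950 to 3.10 in all ilea, with a difference of -1.46 ± 0.41. Krt7, a keratin gene of simple epithelia, stood at 188.6 to 286.1 FPKM in treated and 109.9 to 123.8 in deficient colons, and at 92.8 to 126.6 against 71.4 to 132.8 in the ileum (-0.58 ± 0.22). The growth arrest gene Gadd45a had -1.07 ± 0.32, with a response of -0.37 in the ileum and 0.70 in the colon, and the transcription factor gene Cebpa -1.66 ± 0.63, with -0.82 and 0.84. Ifrd1 and Cebpd, by contrast, had like responses in both tissues (0.61 and 0.69; 0.92 and 1.02).

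The other genes of the 10 smallest p on the colonic side were Inmt, Zfp445, Col23a1, Nbl1, Igfbp6 and Racgap1. Their groups did not overlap, where 3.45% of all genes were apart in that direction, but choosing by p favours such genes. Inmt, a methyltransferase gene, stood at 10.9, 9.43, 5.61 and 5.70 FPKM in treated and 2.82, 4.36 and 1.08 in deficient colons, and at 0.402 to 1.40 against 1.10 to 2.32 in the ileum (-1.65 ± 0.24). Igfbp6, the gene of an IGF-binding protein, had -1.52, with ileal levels of 1.199 to 4.66 FPKM in treated and 2.98 to 13.5 in deficient libraries. Col23a1, a transmembrane collagen gene, had -0.94 and Nbl1, a BMP antagonist gene, -0.96. Zfp445, listed at 0 in colon deficient 3 and at 11.4 FPKM in colon treated 1, and Racgap1 (0.382 to 3.09 FPKM in the colon) may have had reads assigned elsewhere or lie at low levels, and are given as listed.

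In the other direction, Serpina3n, an acute-phase serine protease inhibitor gene (chromosome 12, 105644939 to 105652539 on NCBIM37), had a difference of 1.34 ± 0.17 (adjusted p = 0.302 by limma, range over alternatives 0.0278 to 0.997). The lowest of these came with the numbering as a covariate and passes the threshold. It stood at 15.6, 53.5, 79.7 and 14.9 FPKM in treated and 13.1, 11.5 and 7.85 in deficient ilea. In the colon the values were 19.9, 85.9, 133.9 and 29.3 against 54.7, 45.6 and 38.4. The females treated 3xD5711 and 3xD5720 were high in both tissues. The number-matched differences were -0.93 to -0.34 in treated and -2.16 to -1.90 in deficient numbers, and choosing by p favours differences that are even within groups. Serpina3n belongs to a family of close paralogs whose reads may be shared.

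Pck1, the gene of phosphoenolpyruvate carboxykinase in gluconeogenesis (chromosome 2, 172978549 to 172984774 on NCBIM37), stood at 58.4, 69.7, 101.0 and 115.8 FPKM in treated and 38.9, 36.5 and 8.67 in deficient ilea, with the groups apart. In the colon it stood at 38.9 to 83.5 against 36.7 to 75.6 and overlapped. The difference was 1.75 ± 0.31 (adjusted p = 0.53), with responses of 1.79 and 0.04. G6pc, the gene of the last enzyme of that route, had 1.36 ± 0.79 with overlapping groups, and Fbp1 had -0.26 ± 0.23. Among 18 genes of glycolysis and gluconeogenesis 13 were above 0, with a median of 0.19, and -0.18 for serial numbers alone.

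Ccl2, a monocyte-attracting chemokine gene, stood at 3.60, 10.5, 13.5 and 5.77 FPKM in treated and 2.65, 1.85 and 2.01 in deficient ilea, with groups apart, and at 3.98 to 6.96 against 5.97 to 10.2 in the colon (1.91 ± 0.31, adjusted p = 0.53). Spp1, the osteopontin gene, stood at 2.98, 6.43, 6.30 and 11.5 FPKM in treated ilea and was listed at 0, 1.58 and 1.19 in deficient ones. In the colon it overlapped, at 0.990 to 7.38 against 2.00 to 12.5 FPKM (2.47 ± 0.46). The least p of all belonged to 9930104L06Rik, at 1.69 ± 0.17 (adjusted p = 0.112, range over alternatives 0.0425 to 0.997), which was listed at 1.65 to 3.02 FPKM in treated ilea and at 0, 0.839 and 1.04 in deficient ones. Mib2 (2.21) was listed at 0 in all treated colons while treated ilea had 0.684 to 2.88 FPKM. Of 13 chemokine genes 9 were above 0, and Ccl25, which draws T cells to the small intestine, had -0.73 ± 0.28. Its ileal level overlapped at 515.8 to 749.6 FPKM in treated and 683.7 to 743.4 in deficient libraries.

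Interferon response genes had a median response of -1.06 in the colon, with all 24 tested lower on average in treated than in deficient colons, and of 0.11 in the ileum. Type I and type III interferons act through a complex that holds STAT2 and IRF9, which binds the interferon-stimulated response element and turns on antiviral genes. Of 24 such genes tested, 24 had a difference above 0, against 53.5% of all genes, and the median was 1.19 against 0.02. An unadjusted p under 0.05 was reached by 16, all higher, where 3.57% of all genes were higher at that level. The treated and deficient differences did not overlap for 11, against 4.13% of all genes in that direction. No member passed the adjusted threshold. The list is one that earlier work on these data had already looked at, and its members share libraries, so the count is a description.

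The element's core, GAAANNGAAA, was searched on both strands, and 2.98% of all promoters in the RefSeq table on GRCm38.p6 hold it. Promoters of 3 members are printed, those with the smallest p among members that hold a match, so a match in each was fixed by the choice. The windows are again 250 bases before the start, on the gene's strand, with matches in capitals: Stat2 at chr10:128270248-128270497 (plus strand), Irgm1 at chr11:48871421-48871670 (minus strand) and Ifit3 at chr19:34583279-34583528 (plus strand). Matches read as TTTCNNTTTC where they lie on the opposite strand.
Stat2: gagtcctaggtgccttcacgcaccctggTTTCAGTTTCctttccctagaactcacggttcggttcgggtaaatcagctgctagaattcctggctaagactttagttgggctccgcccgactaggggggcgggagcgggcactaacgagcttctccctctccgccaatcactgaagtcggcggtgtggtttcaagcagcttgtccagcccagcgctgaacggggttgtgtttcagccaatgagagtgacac
Irgm1: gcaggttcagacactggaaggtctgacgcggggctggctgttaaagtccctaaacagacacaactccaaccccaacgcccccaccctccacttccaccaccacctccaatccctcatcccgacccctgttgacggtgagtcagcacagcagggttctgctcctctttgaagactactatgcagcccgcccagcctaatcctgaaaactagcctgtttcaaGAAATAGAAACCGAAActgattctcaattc
Ifit3: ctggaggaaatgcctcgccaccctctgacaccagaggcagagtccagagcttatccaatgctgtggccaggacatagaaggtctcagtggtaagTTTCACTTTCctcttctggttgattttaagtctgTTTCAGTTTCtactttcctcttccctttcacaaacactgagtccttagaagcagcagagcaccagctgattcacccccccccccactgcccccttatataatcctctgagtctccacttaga
Irgm1 holds 2 overlapping matches within 30 bases of its start, Ifit3 has 2 whose first bases lie 156 and 122 before the start, and Stat2 has 1 at 222 before it. Of the 24 genes 17 had an entry in the table, and 11 of the 17 held at least 1 match. Counted by promoter it was 11 of 20. A match is a description of letters and not of binding. Those with matches were Stat2, Irgm1, Ifit3, Rsad2, Igtp, Isg15, Ifit1, Gbp2, Oas1a, Gbp3 and Oas1g.

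Among the factors, Stat2 (chromosome 10, 127707629 to 127729905 on NCBIM37) stood at 14.6, 11.3, 14.1 and 14.2 FPKM in treated and 22.8, 30.4 and 23.9 in deficient colons, with all treated below all deficient. In the ileum the values were 13.04, 15.04, 19.02 and 16.03 against 16.8, 18.6 and 13.2, and the groups overlapped. The response was -0.03 in the ileum and -0.87 in the colon, and the difference 0.84 ± 0.19 (adjusted p = 0.548 by limma). Irf9 (0.59 ± 0.16) and Irf7 (0.82 ± 0.27), STAT2's partner and an inducible regulator, likewise had groups of differences that did not overlap.

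Among the antiviral effectors, Oasl2, an oligoadenylate synthetase-like gene (chromosome 5, 115346943 to 115362243 on NCBIM37), had the smallest p of the list. Its colonic level was 24.4, 12.8, 46.3 and 29.4 FPKM in treated and 62.8, 83.2 and 52.7 in deficient libraries, against 15.3, 22.9, 42.7 and 23.9 and 16.7, 32.3 and 15.04 in the ileum. The response was 0.27 in the ileum and -1.31 in the colon, and the difference 1.58 ± 0.32 (adjusted p = 0.53 by limma). Isg15, a ubiquitin-like modifier gene, stood at 79.7, 9.19, 33.1 and 34.2 FPKM in treated and 85.3, 138.6 and 115.1 in deficient colons, where treated 1 came near deficient 1 (1.30 ± 0.59). Ifi44 had 1.73 ± 0.42, Usp18, which trims ISG15 from proteins, 1.73 ± 0.51, Mx2 1.19 ± 0.32, Ifit3 0.96 ± 0.33 and Rsad2, the viperin gene, 1.00 ± 0.40. The helicase gene Dhx58, which is not on the list, was among the 10 smallest p in this direction (1.16), at 4.93 to 10.2 FPKM in treated and 13.6 to 20.2 in deficient colons. Trim30a, a TRIM family gene with close paralogs, was another (1.376).

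The immunity-related GTPase and guanylate-binding protein genes, which interferon-gamma also induces, leaned on the ileum of treated 3xD5720. Iigp1 stood at 4.30, 8.96, 31.2 and 3.76 FPKM in treated ilea and 5.35, 3.52 and 6.49 in deficient ones, and Gbp2 at 10.2, 17.3, 79.2 and 7.46 against 13.5, 12.0 and 9.62. In both, treated 3xD5720 was well above the rest. Their differences were 2.13 ± 0.75 and 1.63 ± 0.81, with overlapping groups. Zbp1, a nucleic acid sensor gene, was high in ileum treated 3xD5720 (134.8 FPKM) and deficient 3 (60.1) and at 11.2 to 23.4 in the other 5 ilea. Oas1a, Oas1g and Gbp3, whose near copies may share reads, had 0.54, 0.18 and 0.59, and the RNA sensor gene Ddx58 had 0.30, all with overlap.

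The plot of interferon gene differences by number shows that treated 3xD5711 and 3xD5720 lay farthest from the deficient numbers and treated 1 nearest. The mean difference over the list was -0.88 in treated 1, 0.28 in treated 3xD5711, 0.46 in treated 3xD5720 and -0.47 in treated 3xD5734, against -1.14, -1.45 and -1.31 in deficient 1, 2 and 3. All 4 treated numbers were thus above all 3 deficient ones. The summed level in the colon was 219.9 to 530.5 FPKM in treated and 612.4 to 961.8 in deficient libraries, with treated 1 highest of the treated, and in the ileum 226.3 to 621.5 against 233.8 to 354.5. In the colon alone 0 of 24 responses were above 0 (median -1.06) and 18 had an unadjusted p under 0.05, all lower, where 3.4% of all genes were lower at that level. In the ileum alone 16 of 24 were above 0 (median 0.11) and 0 had such a p.

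**Figure D3:**
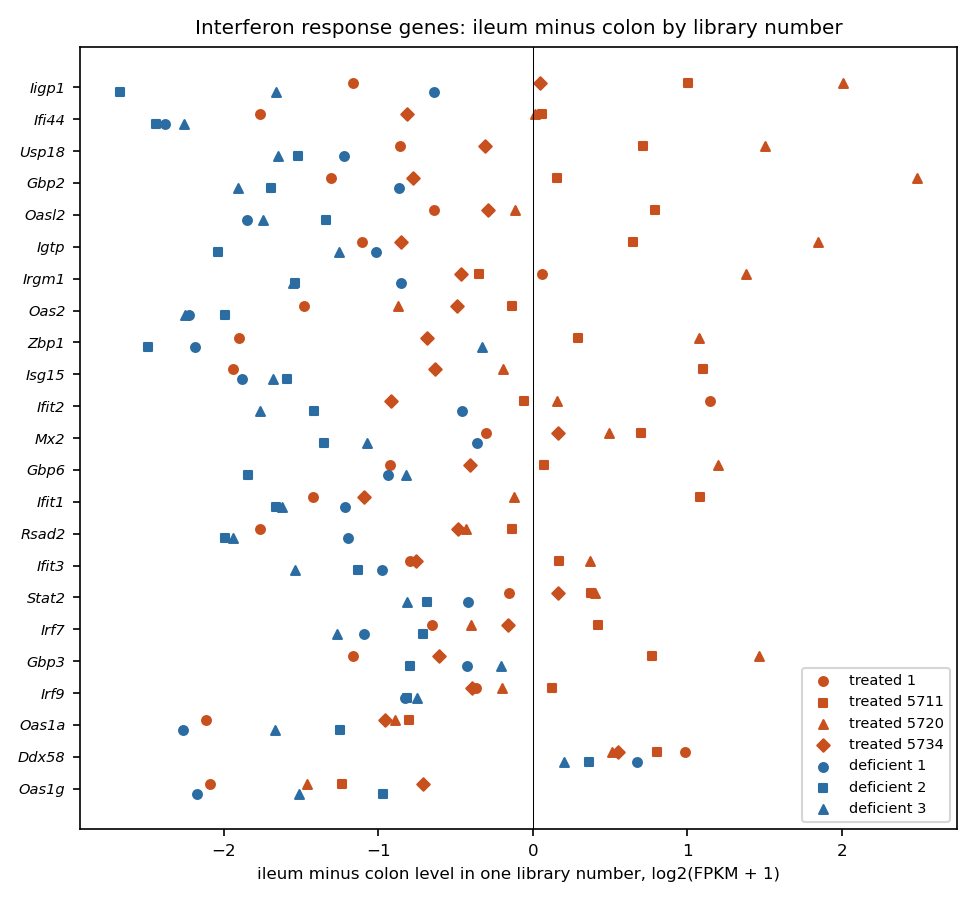
Ileal minus colonic level, as log2(FPKM + 1), of 23 of the 24 interferon response genes in each library number; orange marks the 4 treated and blue the 3 deficient numbers, and genes are ordered by the difference between the groups. For Oasl2 the treated numbers run from -0.64 to 0.79 and the deficient ones from -1.85 to -1.34.

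The size of the interferon difference moved with numbering and with sex. For serial numbers alone, all male, the list's median was 0.42, with 18 of 24 members above 0 and 5 at an unadjusted p under 0.05. With sex in the fit the median was 0.56, and 7 members had such a p. That fit rests on the treated males, treated 1 and 3xD5734. Leaving out the 3 pancreas-rich colon numbers, an alternative chosen after the data were seen, left a median of 1.24, with 22 of 24 above 0. Deficient 2, whose mean difference over the list was the lowest, was then the only deficient number. Without treated 3xD5720 the median was 0.91, with 24 above 0, and without deficient 2 it was 0.99, with 10 members at an unadjusted p under 0.05.

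Markers of immune cells were read beside these genes, and their part in the result was not tested. In bulk tissue fewer cells of a type and less RNA per cell cannot be told apart. Of 12 myeloid markers tested, 12 were above 0 (median 0.33), against 53.5% of all genes, and 8 of 12 for serial numbers alone. S100a8, a neutrophil gene (1.33 ± 0.46), Itgax (0.52), Itgam (0.39) and Lyz2 (0.43) had an unadjusted p under 0.05 and groups apart, where 3.57% of all genes were higher at that level and 4.13% were apart and higher. The summed myeloid level overlapped in every pairing, at 216.3 to 400.9 FPKM in treated and 262.3 to 390.4 in deficient colons and 265.2 to 413.0 against 220.8 to 417.3 in ilea. The macrophage markers Csf1r (0.00), C1qa (0.10) and C1qb (0.12) were close to the median of all genes.

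Lymphocyte markers are given by list. Of 14 T and NK cell markers 7 were above 0, with a median of 0.00, and their summed level was 16.5 to 62.7 FPKM in treated and 39.2 to 56.9 in deficient colons, and 36.1 to 151.1 against 84.1 to 332.6 in ilea. Of 14 B and plasma cell markers 12 were above 0 (median 0.25), and 0 had an unadjusted p under 0.05. For serial numbers alone their median was 1.08, again with 12 above 0, where that of the interferon list was 0.42. Without deficient 1 it was -0.31. Mast cell protease genes Mcpt1 (1.370 ± 0.61) and Mcpt2 (1.10 ± 0.58) lay at 0 to 7.36 FPKM with overlap. Antigen presentation genes of MHC class I gave Tap1, the peptide transporter gene (1.142 ± 0.377), and Nlrc5, their transactivator gene (1.04 ± 0.31), with groups apart, while H2-K1 (0.15) and H2-D1 (0.14) overlapped and H2-Q1 had -0.76 ± 0.24.

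Regional markers of the ileum were read in both tissues, and none passed the adjusted threshold. Of 10 tested, 0 had a difference above 0 (median -0.46) and 10 had a colonic response above 0, 2 of them higher at an unadjusted p under 0.05, where 3.53% of all genes were. Their summed level in the colon was 787.0, 1114, 1443 and 979.4 FPKM in treated and 641.6, 605.4 and 644.0 in deficient libraries, with the groups apart, against 8517 to 15361 and 10733 to 15774 in the ileum. Fabp6 stood at 125.1, 266.5, 37.5 and 60.1 FPKM in treated and 28.5, 63.6 and 36.2 in deficient colons, where the groups overlapped (-1.44 ± 0.53). The bile acid exporter subunit genes Osta (-0.71 ± 0.34) and Ostb (-0.51 ± 0.28) and the bile acid receptor gene Nr1h4 (-0.25 ± 0.20) had smaller values. For serial numbers alone 5 of 10 were above 0, with a median of -0.03. Whether the colonic samples were taken at like distances from the ileum was not tested.

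Paneth cells sit at the base of small intestinal crypts and are scarce in the mouse colon. Their 13 tested markers had a median of -1.10, with 2 above 0. The alpha-defensin gene Defa3 stood at 1985 to 3138 FPKM in treated and 2521 to 4024 in deficient ilea, and at 20.3, 24.8, 9.53 and 4.01 against 1.92, 8.35 and 2.11 in colons (-1.91 ± 0.68). The defensin genes Defa21 and Defa22 (-1.69 and -1.64) are near copies whose reads may be shared. Lyz1, a lysozyme gene, had -0.61 ± 0.61. Levels in the colon were thus a small part of those in the ileum, and the summed colonic level overlapped, at 318.6 to 1775 FPKM in treated and 762.2 to 1117 in deficient libraries. Of the 2 members above 0, Lyz2 is also a myeloid gene, and Ang4 had 2.38 ± 1.23.

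Cholesterol synthesis genes, which the sterol-sensing factor SREBP2 controls, had a median of 0.41, with 17 of 20 above 0. Hmgcs1, the gene of HMG-CoA synthase, stood at 20.6, 30.4, 24.3 and 38.8 FPKM in treated and 57.4, 56.7 and 62.5 in deficient colons, with the groups apart, and at 37.0 to 47.5 against 39.4 to 65.6 in ilea (0.80 ± 0.25). Srebf2, the factor's own gene, had 0.42 ± 0.17. For serial numbers alone the median was -0.07, with 9 of 20 above 0.

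Cell cycle genes had a median of 0.29, with 19 of 20 above 0. Plk1, a mitotic kinase gene, stood at 26.1 to 30.5 FPKM in treated and 33.1 to 41.5 in deficient colons, and at 13.4 to 17.5 against 13.2 to 16.4 in ilea (0.43 ± 0.14). Ccnb1, the cyclin B1 gene, had 0.73 ± 0.27, and Mki67 0.57 ± 0.27 with overlap. Colon deficient 3 had the highest summed level of the colons, 793.4 FPKM, against 357.1 to 519.7 in the other 6. The list's median was 0.06 for serial numbers alone.

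Enteroendocrine cell genes had a median of -0.29, with 5 of 16 above 0, and -0.32 for serial numbers alone. Sct, the gene of the hormone secretin, stood at 138.9, 135.7, 43.2 and 131.5 FPKM in treated and 114.5, 189.8 and 168.0 in deficient ilea, and at 60.3, 56.7, 28.4 and 80.0 against 33.9, 33.5 and 36.7 in colons. Levels overlapped in both tissues, while the number-matched differences were apart (-1.19 ± 0.24, adjusted p = 0.53 by limma). Cyp3a enzymes and efflux pumps had a median of -0.39, with 2 of 8 above 0, and 0.59 with 7 of 8 above 0 for serial numbers alone. Bile acid sensing and transport genes, a list that shares Fabp6 with the ileum markers, had -0.36, with 1 of 10 above 0. Of all genes 53.5% were above 0. For serial numbers alone the bile acid list had 0.12, with 6 of 10. Fibroblast and endothelial markers had a median of 0.20, with 10 of 13 above 0, and Dcn, the decorin gene, went the other way (-0.69 ± 0.22), at 154.3 to 222.1 FPKM in treated and 94.0 to 134.1 in deficient colons. Exocrine pancreas genes had 12 of 13 above 0 with SEs of 0.90 to 2.80, and 3 colonic libraries held nearly all of their colonic level. Fabp1, a fatty acid-binding protein gene, stood at 768.0, 383.4, 2181 and 360.0 FPKM in treated and 194.5, 188.2 and 249.9 in deficient ilea, with the groups apart there, and its difference was 1.86 ± 0.68. Hmox1, the heme oxygenase gene, had 1.23 ± 0.37 with non-overlapping differences. The plot of list medians sets the ileal and colonic median of each list beside their difference.

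**Figure D4:**
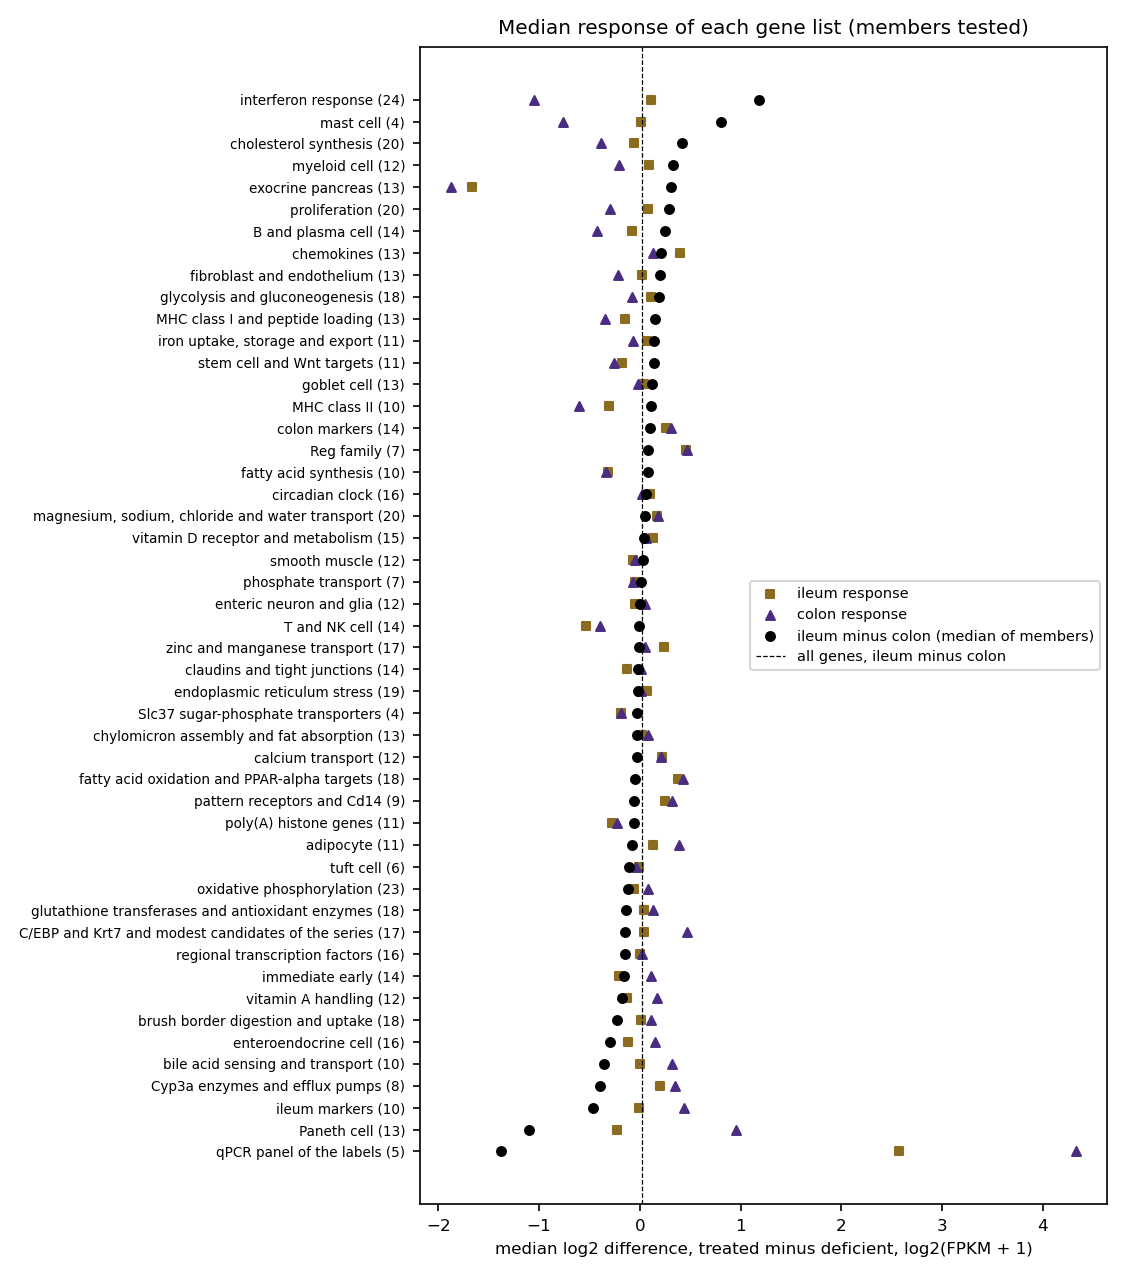
Median over the tested members of each gene list of the ileal response (squares), the colonic response (triangles) and the ileum minus colon difference (circles), all in log2(FPKM + 1), with the number of members tested in brackets and the median of all genes as a dashed line. The interferon response list lies at 0.11, -1.06 and 1.19 and the calcium transport list at 0.22, 0.21 and -0.03.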

How the data were processed

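The authors deposited FPKM values, 1 column a library and 1 row a gene symbol, in separate tables for each tissue, with the unit given in the file names. CLC Genomics Workbench mapped the reads, per the labels' protocols, and kallisto 0.45.0, DESeq 1.14.0, DESeq2 and mm9 appear in the submitters' processing notes without their roles. The 7-library tables of ileum and colon were used, because all 171528 of 171528 entries deposited in the 8-library ileum table are those of the duodenum. Columns headed Vehicle were taken as the deficient group, since the tables compare only 2 groups and hold no other.

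Ileal minus colonic log2(FPKM + 1) per library number was tested, treated against deficient, in R 4.3.3 with limma 3.58.1 (lmFit and a trended eBayes), two-sided, with Benjamini-Hochberg adjustment at 0.05 over 13024 genes with at least 1 FPKM in 3 or more columns of either table. Log2 differences understate changes of low genes. Single genes also had an exact permutation test over 35 splits. Whole reads were recovered from steps in the FPKM values (tolerance 0.0001) for 82.8% of ileal and 82.7% of colonic genes above 0 in several libraries, and gave the depth and a fit by voom; the depth leaves out the other genes. The fit was tested on simulated data.

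Named genes were the 10 with the smallest p in each direction, the labels' PCR panel, Vdr, the members with the smallest p of 50 lists (3 members for calcium, vitamin D receptor, and zinc and manganese lists) and the highest ileum and colon markers; other list members are given as examples. The comparison, members and lists were chosen with earlier results of these data known, and lists are described, not tested. Alternatives covered the pseudocount (0.1, 0.5), filter, colon table, rescaling, number matching, numbering, sex, array weights, robust eBayes, voom and each number left out. Gene positions are from gencode vM1 on NCBIM37. Values of some single members of the lists are not reported here, though the lists' counts and medians include them.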

Additional observations from a re-analysis of the deposited data

Results flagged for a closer look

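Ileal minus colonic differences, in log2(FPKM + 1), of the 4 treated numbers were searched for a number that stood far from the other 3, over 74 genes. Such a number was found for 7 genes, and chance alone gives about 1 in 20. For 4933407H18Rik treated 3xD5734 was at 0.79, where the others lay between 0.52 and 0.57. Slc37a2, the sugar-phosphate transporter gene, was at -2.63 in treated 3xD5720 and between -4.15 and -4.08 in the others, and colon treated 3xD5720 also held the least Slc37a2 of the treated colons. Slc30a6 was at -0.12 in treated 3xD5711 and between 0.09 and 0.12 in the others. Fabp1, the fatty acid-binding protein gene, was at 4.15 in treated 3xD5711 against 5.72 to 5.82. Ndufb11, a gene of respiratory complex I, was at -0.35 in treated 1 against -0.02 to 0.05. Gsta4, a glutathione transferase gene, was at -3.66 in treated 3xD5720 against -1.91 to -1.62, with 5.76 FPKM in that ileum and 21.1 to 34.4 in the other treated ilea. Tlr2, a receptor for bacterial lipoproteins, was at -3.11 in treated 3xD5734 against -2.39 to -2.32. Groups of 3 deficient numbers are too small for this search.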

How the results depend on the processing

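Of 74 named genes, 65 kept their direction under all 23 settings. Not every setting could change a direction: the filters, robust eBayes and no replicate block leave each gene's difference as it was. The numbering as a covariate and serial numbers alone give the same difference. The count of genes called, 0, became 119 (118 higher, 1 lower) with the numbering as a covariate and 65 for serial numbers alone, where treated 1 stands alone for the treatment and is assumed to vary like the deficient numbers. It became 1 with array weights (9930104L06Rik, 1.70, adjusted p = 0.0425) and 1 with voom (Mib2, 10.81, adjusted p = 0.015), and stayed 0 when each number was left out. The count at an unadjusted p under 0.05, 858, was 2438 with the numbering, 2302 for serial numbers alone, 1404 with sex, 1448 with array weights, 436 without the pancreas-rich colon numbers (chosen after seeing the data), and 510 (without deficient 2) to 1104 with 1 number left out. Interferon members at that level, 16, were 3 with the numbering, 5 for serial numbers alone, 7 with sex, 6 without the pancreas-rich numbers and as few as 10 with 1 number left out. The interferon median, 1.19, was 0.42 with the numbering and for serial numbers alone and 0.56 with sex. The fit with sex rests on the treated males, treated 1 and 3xD5734. With the numbering, and for serial numbers alone, these turned sign: Cyp24a1 (0.91), Vdr (0.11), Slc39a4 (0.0405), Hoxb6 (0.19), Vnn1 (0.49), Gzmb (-0.0909) and Saa1 (-2.21). Saa1 was also -1.75 with sex, -0.17 with array weights, -1.14 without treated 3xD5720, -0.47 without deficient 1 and -0.85 without deficient 2. Car1 was -0.61 with sex and -0.0718 with array weights, and H2-DMb2 -0.0267 without deficient 1 and -0.0847 without the pancreas-rich numbers. The cause was not tested.

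The numbers share only a number by the labels. Deviations from group means correlated between the 2 tissues by 0.018 to 0.376, over 0.1 for 6 of 7 numbers, and 3 of 7 matched their own number best both ways. Without the replicate block, which the number matching is, 0 genes were called and 400 had an unadjusted p under 0.05. Depth was lower in the 4-digit libraries and cannot be told apart from numbering.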
